A study of Mus musculus with 24 samples.

Results

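The 10 genes described here encode secreted ligands of the BMP, activin and TGF-beta family: Gdf2, Bmp10, Bmp2, Bmp4, Bmp6, Tgfb1, Tgfb2, Tgfb3, Inhba and Inhbb. They were taken by symbol from the 4 deposited count tables, and all 10 were among the 48574 gene symbols of each table. RNA-seq counts of 24 mouse libraries were used, 3 in each of 8 groups. HSC-KO mice were Gdf2 fl/fl Bmp10 fl/fl mice carrying Lrat Cre, which is active in hepatic stellate cells (HSCs), and their controls are labelled control and WT, with no floxed allele named. Smad4 cKO mice were Smad4 fl/fl mice carrying Vav1 Cre, which is active in hematopoietic cells and so not in macrophages alone, and their controls are labelled as mice with the floxed Smad4 alleles. All mice were on the C57BL/6J background. Liver macrophages (CD45+Ly6C-F4/80+CD64+) of HSC-KO, Smad4 cKO and both sets of control mice and endothelial cells (ECs, CD45-CD31+) of HSC-KO and control mice were sorted at 8 to 10 weeks, and whole livers of HSC-KO and control mice were taken at 12 weeks. 3 mice, by their labels, supplied ECs as well as macrophages. No library of HSCs or hepatocytes was analysed here.

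The ligands of this family are made as precursors, cleaved and secreted as dimers, and they bind pairs of type I and type II receptor kinases that phosphorylate Smad proteins. GDF2 (BMP9) and BMP10 bind the receptor ALK1, which Acvrl1 encodes and which the study found on both ECs and Kupffer cells. BMP2 and BMP6 are known as signals from liver ECs to hepatocytes that raise hepcidin and so limit iron uptake. TGF-beta is secreted in a latent form and is known for driving matrix production by HSCs, and activins are dimers of the inhibin beta chains that Inhba and Inhbb encode.

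Gdf2 lies on chr14:33941039-33947198 and Bmp10 on chr6:87428994-87437677, both on the plus strand of GRCm38. The 250 bases before their start sites are shown because these are the genes deleted in HSC-KO mice and both hold the same short motif. The sequences are from RefSeq (GRCm38.p6), plus strand, with every match to the GATA motif AGATAA in capitals (both strands were searched).
Gdf2, chr14:33940789-33941038: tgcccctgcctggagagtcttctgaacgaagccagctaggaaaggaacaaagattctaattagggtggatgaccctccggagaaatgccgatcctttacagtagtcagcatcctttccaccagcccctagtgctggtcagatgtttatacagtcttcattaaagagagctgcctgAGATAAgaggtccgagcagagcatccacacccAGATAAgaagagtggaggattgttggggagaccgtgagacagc
Bmp10, chr6:87428744-87428993: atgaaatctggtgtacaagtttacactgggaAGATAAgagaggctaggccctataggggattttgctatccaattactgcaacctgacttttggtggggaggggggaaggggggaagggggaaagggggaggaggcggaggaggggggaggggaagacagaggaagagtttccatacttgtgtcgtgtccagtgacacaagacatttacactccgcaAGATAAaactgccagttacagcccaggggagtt
In Gdf2 the first bases of the 2 matches lie 75 and 43 bases before the start, and in Bmp10 they lie 219 and 33 bases before it. The motif is present in 9.99% of the 32851 promoters of this length in the same table, and it was absent from those of Bmp4, Bmp6, Tgfb1, Tgfb2, Inhba and Inhbb. Bmp2 and Tgfb3 had no entry there. Of the 3 other motifs searched, the BMP-SMAD GC-rich motif GGCGCC, the SMAD box CAGAC and the KLF/SP motif GGGCGG, neither promoter held a match, and 9.59%, 42.2% and 32.7% of all promoters did. The GATA motif is shown because it was the one of the 4 that matched. A match is a description of these letters and says nothing of whether a factor binds.

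The quantitative PCR primers for the deleted genes are shown next, because the deposited counts are totals per gene whereas a PCR product marks a single exon. Both pairs match exon 2 of 2 of their gene in GENCODE vM21.
Gdf2 forward, chr14:33944815-33944834: ctggaaggaagcatggtcgt
Gdf2 reverse, chr14:33944906-33944925: ccatccttcgtcccgaatgt
Bmp10 forward, chr6:87434166-87434185: aacgccaaggggaactactg
Bmp10 reverse, chr6:87434242-87434261: ttcatacccaggaggagcga
The amplicons span 111 bp in Gdf2 and 96 bp in Bmp10. Which exon the floxed alleles remove cannot be read from counts per gene, so a count in an HSC-KO library need not come from an intact transcript.

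The libraries held 60911527 to 110879155 counts, with a median of 85451301. Summed over 10 macrophage markers, the macrophage libraries had 25270 to 46454 CPM (counts scaled to the effective library size), and summed over 12 endothelial markers the EC libraries had 9547 to 11146 CPM, with every endothelial marker detected. The 8 Kupffer cell markers summed to 29173 to 30749 CPM in the control macrophages and to 51.0 to 241 CPM in the HSC-KO macrophages. In the Smad4 set the sums were 24064 to 31233 CPM for the control and 843 to 972 CPM for the Smad4 cKO libraries, so the sorted macrophages of mutant and control mice differed in these markers. The Smad4 set of macrophages also held endothelial markers at 462 to 1628 CPM, against 15.6 to 225 CPM in the macrophages of HSC-KO mice and their controls. Control ECs had 705 to 802 CPM of the Kupffer cell markers, and the part of ECs in the macrophage sums was not tested. The targeted gene Smad4 had 3894, 3185 and 4416 counts in the Smad4 control macrophages and 1669, 1461 and 1289 in the Smad4 cKO macrophages (log2 fold change -1.39, SE 0.16, adjusted p = 0.00234).

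Gdf2 transcripts were most abundant in whole control livers, at 22.5, 11.0 and 26.8 CPM. Control ECs had 2.52, 1.49 and 0.875 CPM and control macrophages 0, 2.36 and 1.17 CPM, so every sorted control library was below every control liver. In the fit over all 24 libraries, Gdf2 was lower in control ECs than in control livers (log2 fold change -3.62, SE 1.03, edgeR adjusted p = 0.00462) and lower in control macrophages than in control livers (-4.09, SE 1.06, adjusted p = 0.00211). Its difference between ECs and macrophages did not pass (0.47, SE 0.95, adjusted p = 0.749). Cell type and the preparation of the RNA (sorting, extraction, table) cannot be told apart in these contrasts. Those against livers also hold a difference in age, 8 to 10 weeks for sorted cells and 12 weeks for livers.

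In the livers, Gdf2 fell from 2036, 720 and 2030 counts in control mice to 287, 178 and 189 counts in HSC-KO mice, and the groups did not overlap (log2 fold change -2.55, SE 0.37, adjusted p = 0.0135). About 3.31 ± 1.02 CPM remained in the HSC-KO livers (mean ± SD, n = 3), against 20.1 ± 8.14 CPM in the controls. Bmp10 fell from 362, 209 and 180 counts to 7, 22 and 8 counts, again without overlap (-4.07, SE 0.49, adjusted p = 0.00657). Without control liver replicate 1 or 3 the adjusted p of Gdf2 was 0.0549 or 0.0569, with log2 fold changes of -2.47 and -2.26, whereas Bmp10 stayed past the threshold with any 1 library left out. In the fit over all 24 libraries the adjusted p was 0.245 for Gdf2 (log2 fold change -2.60) and 0.177 for Bmp10 (-4.14).

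In the ECs, Gdf2 had 241, 108 and 76 counts in control mice and 0, 5 and 0 in HSC-KO mice, so the groups did not overlap and 2 of the HSC-KO libraries held none (log2 fold change -6.39, SE 1.14, adjusted p = 0.00752). Bmp10 had 15, 4 and 9 counts in control ECs and 0 in each HSC-KO EC library. It did not pass the filter on low counts and was not tested. Against a limit of 3 counts per library it was at least 2.9-fold lower in the HSC-KO ECs, which covers counting error only.

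In the macrophages, Gdf2 had 0, 195 and 66 counts in control and 7, 0 and 12 counts in HSC-KO mice, and the groups overlapped because of control replicate 1 (log2 fold change -4.01, SE 1.77, adjusted p = 0.161). Without that library the adjusted p was 0.0372, with a log2 fold change of -4.60. With DESeq2 it was 0.0396 and in the fit over all 24 libraries 0.0175. Bmp10 had 0, 14 and 0 counts in control macrophages and 0 in the HSC-KO macrophages, which is near the detection limit throughout. In the Smad4 set, Gdf2 had 128, 175 and 290 counts in control and 171, 395 and 109 counts in Smad4 cKO macrophages (0.09, SE 0.43, 95% interval -0.92 to 1.11, adjusted p = 0.93). The 2 groups of that set overlapped fully, and Bmp10 was at 0 in 5 of its 6 libraries, with 11 counts in Smad4 cKO replicate 2.

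HSC markers were present in every sorted library. The 15 markers summed to 10.2, 89.2 and 52.7 CPM in the control macrophages, in the same order as their Gdf2 counts, and to 113, 79.6 and 29.1 CPM in the control ECs, again in the order of Gdf2. The HSC-KO macrophages had 61.8, 53.5 and 132 CPM of these markers and the HSC-KO ECs 40.3, 53.0 and 34.4 CPM, which overlapped the control ranges, with 0 to 12 counts of Gdf2. In control livers the markers summed to 383 to 529 CPM and in HSC-KO livers to 709 to 758 CPM, so Gdf2 and Bmp10 fell where the summed markers were higher. In whole livers, fewer cells of a type and less RNA per cell cannot be told apart. Lrat, which encodes the enzyme that stores vitamin A in HSCs, was between 10.9 and 33.6 CPM in control livers, a range that held all 3 HSC-KO livers. Its ranges did not overlap in ECs, at 10.0 to 20.99 CPM in control and 2.92 to 5.88 CPM in HSC-KO mice, but in macrophages the control range of 1.98 to 20.04 CPM held that of HSC-KO mice, 4.28 to 5.50 CPM. The part of HSC RNA in the Gdf2 counts of sorted cells was not tested.

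**Figure D1:**
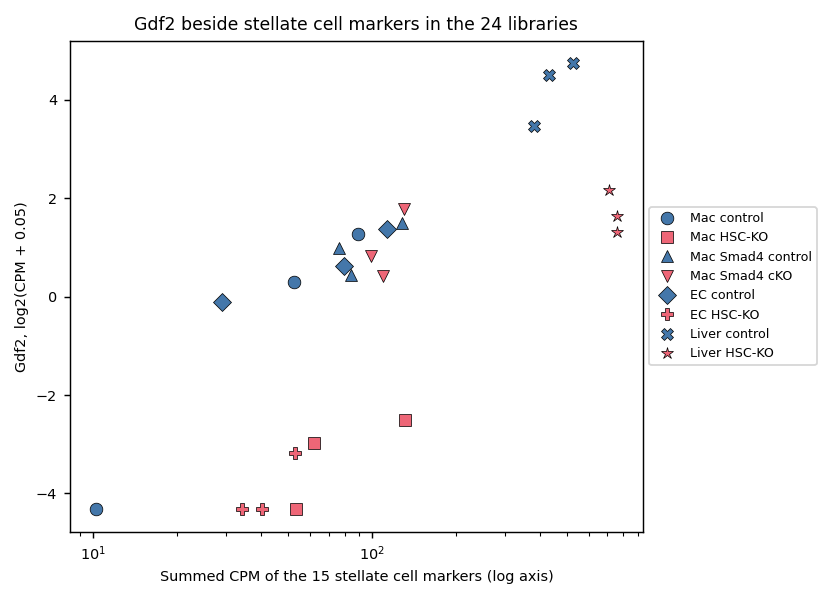
Gdf2 (vertical axis, log2 of CPM + 0.05) against the summed CPM of the 15 HSC markers (horizontal log axis); each point is 1 library, blue for control and red for mutant mice. Apart from 1 control macrophage library at 0, the control and Smad4 cKO libraries of sorted cells lie between 0.875 and 3.38 CPM of Gdf2, the 6 sorted HSC-KO libraries lie below them at overlapping marker levels, and the HSC-KO livers lie below the control livers at higher marker levels.

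Across the 24 libraries, the genes whose log2 CPM followed Gdf2 most closely were Lhfp (Pearson r = 0.875), Pth1r (0.853), Mtfp1 (0.850), Ccs (0.841) and Lrat (0.838). These are the 5 highest of 15684 genes, and they are a description, since the libraries share mice, tables and cell types.

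Bmp2 and Bmp6 were the most abundant of the BMP ligands in control ECs. Per kilobase of exon, Bmp2 was the most abundant of the 10 ligands in control ECs at 111 ± 20.2 CPM per kb (mean ± SD, n = 3). Inhbb followed at 17.0 ± 8.59 and Bmp6 at 16.6 ± 2.72 CPM per kb, 2 levels that did not differ beyond their spread. Tgfb1 had 4.05 ± 1.19 and Bmp4 2.92 ± 0.66 CPM per kb, whose ranges overlapped only narrowly, and the highest of the other 5 was Gdf2 at 0.545 ± 0.279 CPM per kb.

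Bmp2 (chr2:133552159-133562885, plus strand) had 316, 410 and 458 CPM in control ECs, 1.80, 9.33 and 2.37 CPM in control macrophages and 23.2, 32.0 and 37.3 CPM in control livers. The 3 groups did not overlap. It was higher in ECs than in macrophages (log2 fold change 6.45, SE 0.86, adjusted p = 3.65e-06) and than in livers (3.68, SE 0.76, adjusted p = 0.000284). Bmp6 (chr13:38345107-38500302, plus strand) was ordered alike, with 53.0, 68.3 and 73.4 CPM in control ECs, 0.119, 1.90 and 0.819 CPM in control macrophages and 4.79, 6.01 and 7.66 CPM in control livers. Its difference was 6.10 (SE 0.86, adjusted p = 6.51e-06) between ECs and macrophages and 3.40 (SE 0.75, adjusted p = 0.000539) between ECs and livers.

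Both fell in the ECs of HSC-KO mice. Bmp2 went from 30206, 29767 and 39750 counts in control mice to 3069, 433 and 362 counts in HSC-KO mice (log2 fold change -5.01, SE 0.81, adjusted p = 0.00493). The groups were far apart, and HSC-KO replicate 1 kept a higher level than the other two. Bmp6 went from 5063, 4955 and 6378 counts to 516, 392 and 566 counts (-3.68, SE 0.19, adjusted p = 6.13e-05), with little spread within either group. Over the 12 endothelial markers, control ECs summed to 10644 to 11146 CPM and HSC-KO ECs to 9547 to 10575 CPM. Sums over some marker lists of other cells also differed. The 10 macrophage markers summed to 233 to 311 CPM in control and 59.1 to 97.1 CPM in HSC-KO ECs, and the 8 Kupffer cell markers to 705 to 802 and 509 to 613 CPM. All 8 were detected in each control library and 2 to 3 in each HSC-KO library. They include Clec1b, whose product CLEC2 the study also uses as a marker of hepatic ECs, so this sum need not come from Kupffer cells. The 7 markers of monocytes, neutrophils and dendritic cells went from 0.0921 to 0.262 CPM up to 53.9 to 67.8 CPM, where Ly6c2 was the only marker of the list detected in the HSC-KO ECs. The part of these markers in the falls was not tested. Among the 9 ligands tested in ECs, 3 fell and 1 rose, where 13.7% of all 16053 genes tested were called in either direction. The median log2 fold change was -0.45 over these 9 and 0.00475 over all genes tested. Both the count of falls and this median include Gdf2, a gene deleted in HSC-KO mice.

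The same 2 ligands fell in whole livers of HSC-KO mice. Bmp2 went from 2096, 2084 and 2825 counts to 36, 92 and 90 counts (log2 fold change -4.77, SE 0.38, adjusted p = 0.0013). Bmp6 went from 433, 392 and 581 counts to 95, 147 and 100 counts (-1.81, SE 0.27, adjusted p = 0.0155). Neither gene overlapped between the groups. The endothelial markers summed to 320 to 382 CPM in control livers and to 284 to 339 CPM with HSC-KO. The macrophage markers summed to 367 to 539 and 127 to 205 CPM and the Kupffer cell markers to 329 to 542 and 55.1 to 83.2 CPM, lower without overlap. Markers of T, B and NK cells (6.36 to 9.01 and 1.34 to 3.89 CPM) and of monocytes, neutrophils and dendritic cells (4.50 to 8.90 and 2.24 to 3.92 CPM) were lower too. Those of hepatocytes (138506 to 170329 and 170492 to 225823 CPM) were higher, as were the HSC markers above. The part of these markers in the falls was not tested. The adjusted p of Bmp6 was 0.0662, 0.0718 or 0.0785 without control liver replicate 2, control replicate 3 or HSC-KO liver replicate 1, at log2 fold changes of -1.80, -1.60 and -1.71.

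Counted over the 10 ligands, all of which were tested in livers, 4 fell and 1 rose, where 2.48% of all 17118 genes were called. The median log2 fold change of the 10 was -0.66 and that of all genes -0.00978. Both the count of falls and this median include Gdf2 and Bmp10, the genes deleted in HSC-KO mice. Without control liver replicate 3, 2 ligands were called, and 3 were called without control replicate 2 or HSC-KO replicate 1. In the fit over all 24 libraries, where the groups share an estimate of the spread, 1 ligand was called (Bmp2). In the test of the difference between the fold changes of ECs and livers, edgeR called 0 ligands, where 6.04% of 20828 genes were called. It gave 1 ligand (Gdf2) an unadjusted p under 0.05, and DESeq2 called 0. For Bmp2 it was -0.15 (SE 1.00, 95% interval -2.25 to 1.95), and for Bmp6 -1.79 (SE 0.98, 95% interval -3.85 to 0.26, adjusted p = 0.33). In a fit of those 12 libraries alone, 2 ligands were called, Bmp6 (-1.83, adjusted p = 0.00349) and Gdf2 (-3.82, adjusted p = 0.0473), both with the larger fall in ECs. The ECs (8 to 10 weeks) and livers (12 weeks) also differed in age. In the fit over all 24 libraries without control EC replicate 2, the only control EC library with Inhba, Inhba alone was called (adjusted p = 0.0028).

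**Figure D2:**
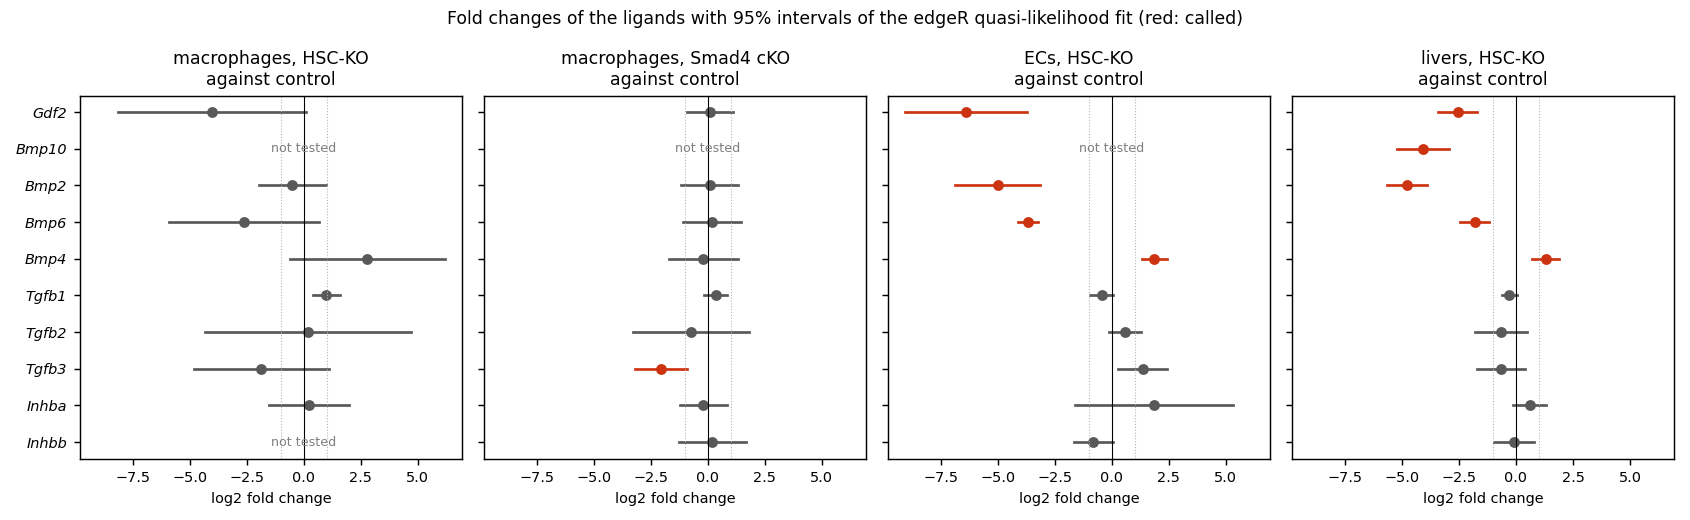
Log2 fold change of each ligand (horizontal axis) in the 4 comparisons of mutant with control mice, 3 libraries per group; points are estimates, bars their 95% intervals, red marks called genes and dotted lines the fold threshold. Gdf2, Bmp2 and Bmp6 lie to the left and Bmp4 to the right in both ECs and livers of HSC-KO mice, Bmp10 lies to the left in livers, and in macrophages only Tgfb3 in Smad4 cKO mice is red.

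In macrophages, Bmp2 was low and its groups overlapped, with 151, 772 and 133 counts in control and 199, 443 and 220 counts in HSC-KO mice (log2 fold change -0.50, SE 0.63, 95% interval -1.98 to 0.97, adjusted p = 0.632). The fall of Bmp2 was larger in ECs than in macrophages, in the test of the difference itself (-4.41, SE 1.02, adjusted p = 0.00457). Of the 10 ligands, 2 were called in that test, Bmp2 and Tgfb1, where 12.8% of 20828 genes were called. Leaving out single libraries added Tgfb3 (3.72, adjusted p = 0.0472 without control macrophage replicate 3 and 5.64, adjusted p = 0.00296 without HSC-KO macrophage replicate 1), Inhbb (3.95, adjusted p = 0.0468 without control macrophage replicate 1) and Inhba (adjusted p = 0.000841 without control EC replicate 2). Bmp6 had 10, 157 and 46 counts in control and 0, 8 and 33 counts in HSC-KO macrophages, and the groups overlapped (-2.62, SE 1.41, adjusted p = 0.243). In the fit over all 24 libraries its adjusted p was 0.0284. The endothelial markers in these libraries summed to 22.4, 225 and 151 CPM in the controls and to 15.6, 23.1 and 49.7 CPM in the HSC-KO macrophages, and Bmp6 followed the same order of libraries in both groups.

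In the macrophages of the Smad4 set both ligands were detected in every library. Bmp2 had 2098, 385 and 2060 counts in control and 2011, 1409 and 1339 counts in Smad4 cKO macrophages (log2 fold change 0.09, SE 0.53, 95% interval -1.15 to 1.34, adjusted p = 0.945). Bmp6 had 396, 110 and 712 counts in control and 456, 662 and 293 counts in Smad4 cKO macrophages (0.19, SE 0.55, adjusted p = 0.884). Control replicate 2 had the lowest count of both genes, and it also had the lowest sum of endothelial markers, 462 CPM against 1245 to 1628 CPM in the other 5 libraries.

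To set these levels beside the endothelial signal, the summed endothelial markers of each library were divided by their mean in control ECs, and the share was multiplied by the ligand's mean in control ECs. The share was 4.24 to 14.96% in the Smad4 set, 0.143 to 2.07% in the other macrophages and 2.61 to 3.51% in the livers. For Bmp6, control macrophages had 0.119, 1.90 and 0.819 CPM, and the share gives 0.133, 1.34 and 0.899 CPM. For Bmp2 the same libraries had 1.80, 9.33 and 2.37 CPM where the share gives 0.811, 8.17 and 5.47 CPM, so 2 lay above and 1 below. For Inhbb they had 0, 1.57 and 0.160 CPM where it gives 0.148, 1.49 and 1.00 CPM. In the Smad4 set the share gives 2.75 to 9.71 CPM of Bmp6 and 1.22 to 6.80 CPM were measured, with the measured level below the given one in each of the 6 libraries. For Bmp2 the share gives 16.7 to 59.1 CPM there and 4.28 to 21.3 CPM were measured, again below in each. The HSC-KO macrophages had 2.22, 4.66 and 2.30 CPM of Bmp2, above the 0.0193, 0.0287 and 0.0617 CPM that the share gives when both the markers and the ligand are taken from the HSC-KO ECs. The control livers had 23.2, 32.0 and 37.3 CPM of Bmp2, above the 11.6, 12.8 and 13.9 CPM given by the share. The HSC-KO livers had 0.556, 1.26 and 1.45 CPM of Bmp2, and the share of HSC-KO ECs gives 0.353, 0.421 and 0.402 CPM. For Bmp6 the HSC-KO livers had 1.47, 2.02 and 1.61 CPM, above the 0.145, 0.173 and 0.165 CPM that the share of HSC-KO ECs gives. How much of each ligand in the macrophage libraries came from ECs was not tested.

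**Figure D3:**
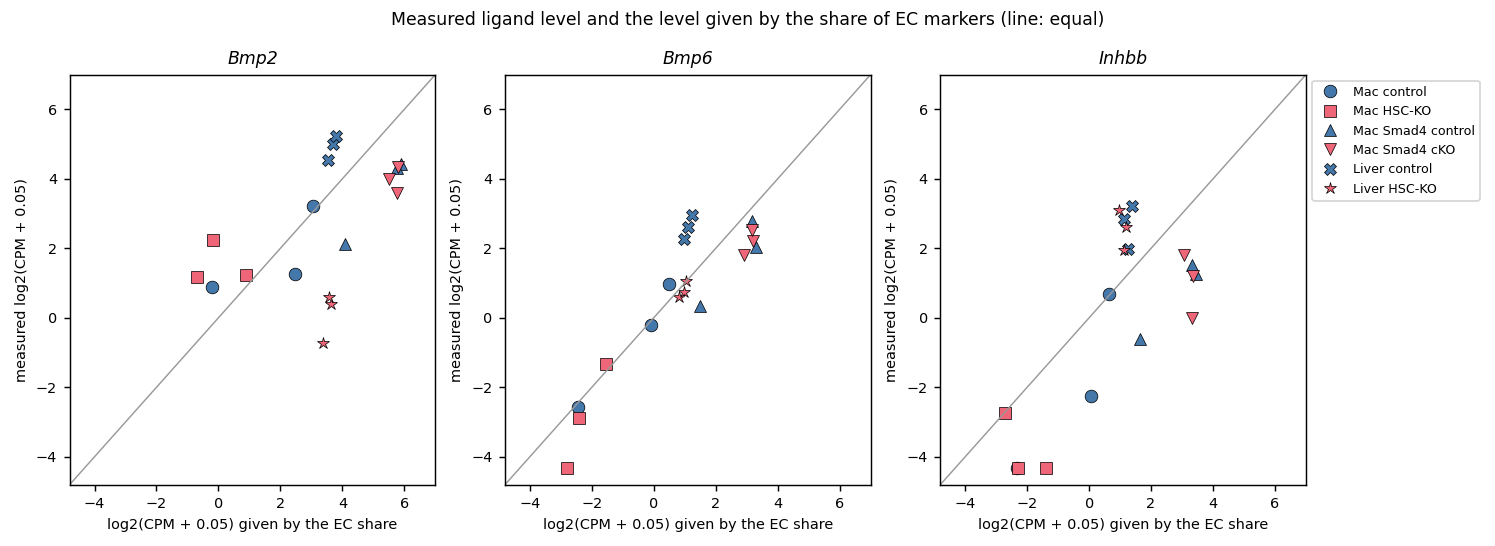
Measured level (vertical axis, log2 of CPM + 0.05) of Bmp2, Bmp6 and Inhbb against the level that the share of endothelial markers gives from the ligand's mean in control ECs, for all libraries (horizontal axis, same scale); each point is 1 library and the line marks equal values. Bmp6 in the control macrophages lies close to the line, the Smad4 set lies below it for all 3 genes, and the control livers lie above it.

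The genes whose levels followed Bmp2 most closely over the 24 libraries were Plxnc1 (Pearson r = 0.956), Gm10612 (0.940), Mroh7 (0.938), Gm43194 (0.924) and Tpbgl (0.923). For Bmp6 they were Kit (0.961), which encodes a receptor tyrosine kinase, Cd59a (0.958), Col13a1 (0.954), Tspan2 (0.952) and Npr1 (0.949), which encodes a natriuretic peptide receptor. All of these had their highest mean level in control ECs.

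Bmp4 (chr14:46383520-46390669, minus strand) was the ligand that rose. In ECs it had 772, 469 and 444 counts in control and 2555, 1592 and 2814 counts in HSC-KO mice, with no overlap (log2 fold change 1.86, SE 0.23, adjusted p = 0.00158). Per kilobase, the control ECs averaged 2.92 ± 0.66 CPM per kb and the HSC-KO ECs 10.8 ± 2.30 CPM per kb, the latter above the HSC-KO levels of Bmp2 (3.54 ± 3.93) and Bmp6 (1.33 ± 0.17). In the HSC-KO ECs the ranges of Bmp4 and Inhbb (9.89 ± 2.82) overlapped. In livers, Bmp4 had 255, 132 and 121 counts in control and 338, 353 and 326 counts in HSC-KO mice (1.30, SE 0.26, adjusted p = 0.0449). The liver groups did not overlap, but the call was lost in 5 of the 6 fits that left out 1 library, all but the one without control replicate 1 (adjusted p of 0.0762 to 0.157), with log2 fold changes of 1.15 to 1.54 over the 6. The EC call was lost in the fit over all 24 libraries (1.89, adjusted p = 0.119).

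Among the control groups, Bmp4 was higher in ECs than in macrophages (log2 fold change 5.46, SE 0.98, adjusted p = 0.000114) and lower in macrophages than in livers (-3.85, SE 0.93, adjusted p = 0.0012). Control macrophages had 9, 26 and 0 counts and HSC-KO macrophages 15, 18 and 235 counts (2.78, SE 1.46, adjusted p = 0.232). In the fit over all 24 libraries it was called (2.66, adjusted p = 0.0468). A single library, HSC-KO replicate 3, was high. It came from the same mouse as HSC-KO EC replicate 1, and it had the highest summed HSC markers (132 CPM) and endothelial markers (49.7 CPM) of its group. The share of HSC-KO ECs gives 0.119 CPM of Bmp4 in this library, where 2.46 CPM were measured. The source of its Bmp4 was not tested. Bmp4 shares 89 exonic bases with the antisense gene Gm15217, and whether counting used the strand is not given in the sources used here. Bmp6 shares 224 exonic bases with the opposite-strand gene Txndc5, and Tgfb2 shares 124 with Gm29491.

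**Figure D4:**
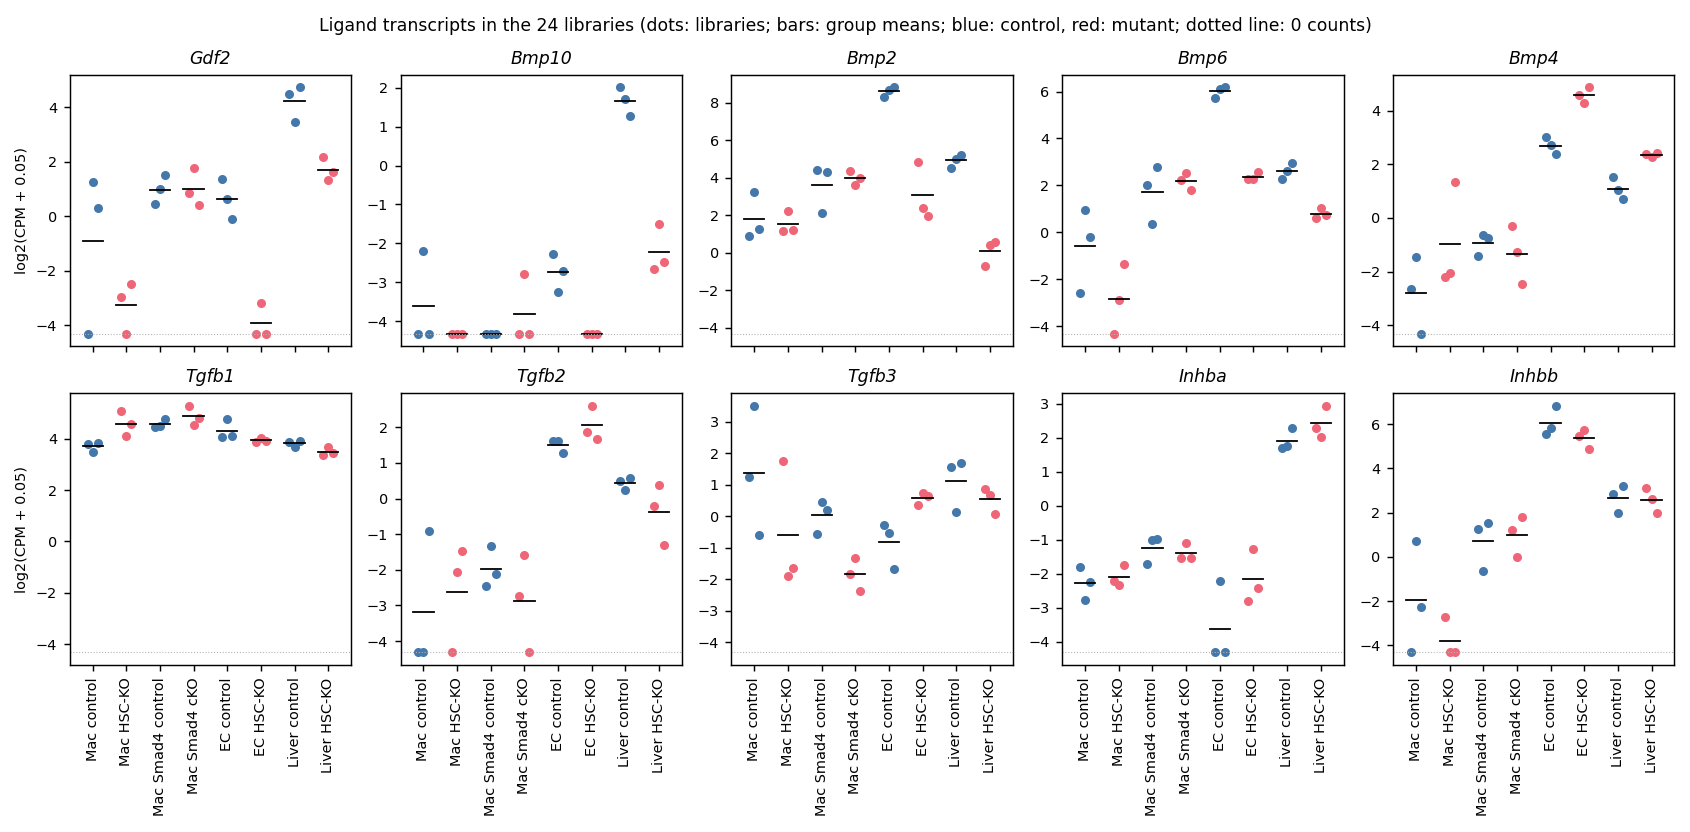
Level of each ligand (vertical axis, log2 of CPM + 0.05, scaled by panel) in the 24 libraries; dots are libraries, bars the means of 3 libraries on this scale, blue control and red mutant mice, and the dotted line is 0 counts. Among the control groups, Bmp2, Bmp6 and Inhbb are highest in ECs and Gdf2, Bmp10 and Inhba in livers, and Tgfb1 lies between 10.3 and 39.0 CPM in every library.

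Tgfb1 (chr7:25687002-25705077, plus strand) was between 10.3 and 39.0 CPM in all 24 libraries. In control macrophages it had the highest mean of the 10 per kilobase, at 2.59 ± 0.33 CPM per kb, followed by Tgfb3 (1.41 ± 1.71) and Bmp2 (1.27 ± 1.18), and the ranges of the 3 overlapped. Between control ECs and control macrophages it differed by 0.64 (log2, SE 0.23, adjusted p = 0.0269), under the fold threshold. In the macrophages it had 1146, 925 and 803 counts in control and 2996, 1634 and 2274 counts in HSC-KO mice, with no overlap. Its log2 fold change of 0.99 (SE 0.26, adjusted p = 0.0327) was just under the threshold of 1, so it was not called. In the same libraries the 7 markers of T, B and NK cells summed to 65.1 to 106 CPM in the controls and 191 to 213 CPM in HSC-KO mice, and the 7 of monocytes, neutrophils and dendritic cells to 3.71 to 5.43 and 10.3 to 24.1 CPM, and their part in the result was not tested. Tgfb1 passed with library size alone (1.07, adjusted p = 0.0266), with at least 10 counts in every library (1.00, adjusted p = 0.0223) and without HSC-KO replicate 2 (1.20, adjusted p = 0.014).

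The Smad4 cKO macrophages had 3863, 2711 and 2402 counts of Tgfb1 against 2170, 2037 and 2856 in their controls (log2 fold change 0.34, SE 0.21, 95% interval -0.15 to 0.83, adjusted p = 0.424). In ECs it had 1598, 1984 and 1487 counts in control and 1579, 1333 and 1405 counts in HSC-KO mice, apart in CPM but by little (-0.45, SE 0.21, adjusted p = 0.192). In livers it had 1329, 836 and 1143 counts in control and 665, 919 and 667 counts in HSC-KO mice (-0.29, SE 0.14, adjusted p = 0.486). The difference between its fold changes in ECs and macrophages passed (-1.35, SE 0.32, adjusted p = 0.00606), and not when tested against a log2 difference of 1 (adjusted p = 0.351).

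Counted over the ligands, 0 of the 8 tested in macrophages were called with HSC-KO, where 11.7% of all 16337 genes were called by edgeR. Of the 8, only Tgfb1 had an unadjusted p under 0.05. DESeq2 called 1 (Gdf2). The fit over all 24 libraries, in which all 10 were tested, called Gdf2, Bmp4 and Bmp6 of these 8 and also Inhbb, which the filter on low counts had removed (log2 fold change -4.13, SE 1.30, adjusted p = 0.0315, with overlapping groups). With Smad4 cKO, 1 of 9 was called, where 5.43% of 17517 genes were called. The difference between the 2 macrophage comparisons called 0 ligands with edgeR (5 at an unadjusted p under 0.05) and 1 with DESeq2, where 2.3% of 20828 genes were called with edgeR. Gdf2 (-4.77, adjusted p = 0.0201) and Inhbb (-4.92, adjusted p = 0.0491) were called there without control macrophage replicate 1, and Bmp6 (-4.60, adjusted p = 0.0457) without HSC-KO macrophage replicate 3.

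The ligand called with Smad4 cKO was Tgfb3 (chr12:86056745-86079041, minus strand), which fell from 62, 120 and 114 counts in control to 23, 41 and 12 counts in Smad4 cKO macrophages (log2 fold change -2.05, SE 0.48, adjusted p = 0.0455). The groups did not overlap, but the counts were low and the call was lost without any of the 3 control libraries or without Smad4 cKO replicate 1 or 3 (adjusted p of 0.054 to 0.153, log2 fold changes of -2.42 to -1.79 over the 6 fits). Markers of mesothelium and smooth muscle (2.75 to 3.44 and 1.30 to 2.36 CPM) and of macrophages (38464 to 46454 and 25270 to 31978 CPM) were also lower with Smad4 cKO. Those of T, B and NK cells (110 to 177 and 219 to 267 CPM) and cholangiocytes (1.52 to 1.64 and 6.13 to 9.32 CPM) were higher. The part of these markers in the fall of Tgfb3 was not tested. In the HSC-KO set, Tgfb3 varied widely within groups, with 193, 940 and 34 counts in control and 295, 21 and 26 counts in HSC-KO macrophages (-1.85, SE 1.28, adjusted p = 0.362). Control ECs had 74, 47 and 23 counts and HSC-KO ECs 132, 135 and 144 counts, without overlap (1.35, SE 0.47, adjusted p = 0.0854). DESeq2 gave an adjusted p of 0.038 there and library size alone 0.0475. Control macrophages had more Tgfb3 than control ECs (log2 fold change of ECs against macrophages -3.08, SE 0.96, adjusted p = 0.013), but without control macrophage replicate 2 this was -1.37 (adjusted p = 0.229), and without control EC replicate 3 it was -2.74 (adjusted p = 0.058). With the mouse as a block in limma-voom, since 1 mouse supplied a library to each of these groups, it was -2.27 (adjusted p = 0.136). Tgfb3 shares 420 exonic bases with antisense genes (Gm37804 and Gm48008).

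Tgfb2 (chr1:186622792-186705989, minus strand) was an EC and liver transcript. It had 289, 220 and 206 counts in control and 388, 501 and 299 counts in HSC-KO ECs, which were apart in CPM by a narrow margin (log2 fold change 0.58, SE 0.31, adjusted p = 0.24). In livers it had 123, 74 and 110 counts in control and 53, 91 and 22 counts in HSC-KO mice, with overlap (-0.65, SE 0.49, adjusted p = 0.689). In the 12 macrophage libraries it had at most 33 counts and was at 0 in 4. Its level was higher in control ECs than in control macrophages (4.21, SE 1.33, adjusted p = 0.0141).

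Inhbb (chr1:119415465-119422248, minus strand), the activin beta B chain, was most abundant in ECs, like Bmp2 and Bmp6, but its difference with HSC-KO did not pass the test. Control ECs had 4449, 4060 and 9911 counts and HSC-KO ECs 4775, 4348 and 2758 counts, and the groups overlapped (log2 fold change -0.81, SE 0.36, 95% interval -1.66 to 0.04, adjusted p = 0.17). Livers had 641, 255 and 701 counts in control and 547, 442 and 238 counts in HSC-KO mice (-0.09, SE 0.38, adjusted p = 0.965). It was higher in control ECs than in control macrophages (6.93, SE 1.07, adjusted p = 2.08e-05) and than in control livers (3.42, SE 0.89, adjusted p = 0.0024). Macrophages of HSC-KO mice and their controls were at 0 in 3 of 6 libraries, with 130 counts in control replicate 2, the one with the most endothelial markers. In the Smad4 set it had 232, 54 and 294 counts in control and 221, 111 and 294 counts in Smad4 cKO macrophages (0.20, SE 0.64, adjusted p = 0.893).

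Inhba (chr13:16011851-16031621, plus strand), the activin beta A chain, was found in whole livers and was low in the sorted cells. Control livers had 288, 216 and 368 counts and HSC-KO livers 314, 295 and 476 counts, which overlapped (log2 fold change 0.59, SE 0.31, 95% interval -0.12 to 1.31, adjusted p = 0.503). Control ECs had 0, 12 and 0 counts and HSC-KO ECs 10, 30 and 13 counts (1.85, SE 1.49, adjusted p = 0.45), and the 12 macrophage libraries had 8 to 49 counts. It was lower in control ECs (-6.16, SE 0.96, adjusted p = 1.26e-05) and control macrophages (-4.50, SE 0.86, adjusted p = 0.00013) than in control livers.

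Over the 3 control groups, 6 of the 10 ligands differed between ECs and macrophages, where 33% of 20828 genes were called. Bmp2, Bmp4, Bmp6, Tgfb2 and Inhbb were higher in ECs and Tgfb3 was higher in macrophages. Without control EC replicate 2 Inhba was called too (adjusted p = 5.76e-05), and without control macrophage replicate 2 Bmp10 was (adjusted p = 0.0382), in both cases with 1 group at 0. With the mouse as a block in limma-voom, Tgfb3 was not called (adjusted p = 0.136) and Inhba was (-3.25, adjusted p = 0.0485). Between ECs and livers 6 were called, where 54.7% of genes were, with Bmp2, Bmp6 and Inhbb higher in ECs and Gdf2, Bmp10 and Inhba higher in livers, and without control liver replicate 2 Tgfb3 was called as well (-2.45, adjusted p = 0.0418). Between macrophages and livers 8 were called, all lower in macrophages, where 56.6% of genes were called. Tgfb1 and Tgfb3 were the 2 that did not pass there, and the call of Tgfb2 (-3.12, adjusted p = 0.0389) was lost without control macrophage replicate 1 or 2 or control liver replicate 1 or 3 (adjusted p of 0.0579 to 0.11). In control livers the order per kilobase was Bmp2 (8.67 ± 2.00 CPM per kb), Gdf2 (6.73 ± 2.73), Tgfb1 (2.82 ± 0.24), Inhbb (1.59 ± 0.63), Bmp6 (1.58 ± 0.37), Bmp4 (0.956 ± 0.277), Bmp10 (0.712 ± 0.182), Tgfb3 (0.702 ± 0.339), Inhba (0.592 ± 0.145) and Tgfb2 (0.227 ± 0.028). Of the neighbours in that order, Gdf2 and Tgfb1, Tgfb1 and Inhbb, and Inhba and Tgfb2 had ranges that did not overlap.

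**Figure D5:**
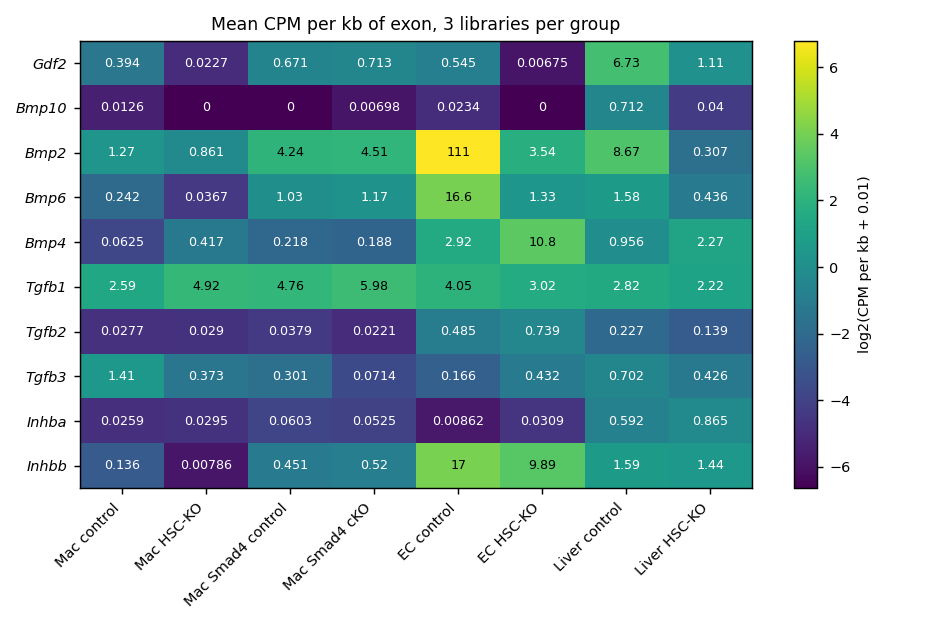
Mean CPM per kilobase of exon of each ligand (rows) in the 8 groups (columns), 3 libraries per group; the colour gives log2 of the value + 0.01 and the printed number the value. Bmp2 in control ECs, at 111, is the highest cell, and Bmp10 is at 0 in the HSC-KO and Smad4 control macrophages and in the HSC-KO ECs.

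The ligands act through receptors, Smads and target genes, and the genes of these lists were read from the same fits. In macrophages, 7 of the 13 tested direct target genes of BMP and TGF-beta signals reported here fell with HSC-KO, where 11.7% of all genes were called. Id3 (log2 fold change -8.23, SE 0.61, adjusted p = 0.000183), Id1 (-7.56, SE 0.80, adjusted p = 0.00075) and Hey1 (-5.51, SE 0.38, adjusted p = 0.000141), transcriptional regulators that BMP signals induce, had the largest falls among those with a mean of at least 1 CPM. Id1 went from 1779, 1175 and 561 counts in control to 13, 0 and 8 counts in HSC-KO macrophages. With Smad4 cKO, 6 of 13 fell, where 5.43% of all genes were called. Id1 went from 1465, 1402 and 1192 to 214, 230 and 111 counts (-2.93, SE 0.25, adjusted p = 0.000787), and Hey1 fell by 2.96 on the log2 scale (SE 0.66, adjusted p = 0.0377). Id3 fell from 202756, 186870 and 199204 to 36144, 48220 and 28120 counts (-2.44, SE 0.13, adjusted p = 0.000102).

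In ECs with HSC-KO, 5 of 12 tested target genes fell and 1 rose, where 13.7% of all genes were called. The inhibitory Smads Smad6 (log2 fold change -3.01, SE 0.27, adjusted p = 0.000361) and Smad7 (-1.80, SE 0.22, adjusted p = 0.00147) and Id2 (-2.28, SE 0.37, adjusted p = 0.00501) had the largest falls among those with a mean of at least 1 CPM. Id1, named here after its values were seen, had 3109, 1391 and 1691 counts in control and 3874, 1877 and 2145 counts in HSC-KO ECs (0.17, SE 0.27, adjusted p = 0.73). In livers, where 2.48% of all genes were called, 1 of 15 was, Smad6 (-2.14, SE 0.37, adjusted p = 0.0264). Hamp, the hepcidin gene and a known target of BMP2 and BMP6 in hepatocytes, was also named after its values were seen. Its reads may be split with the near-identical Hamp2, and it gave -0.31 (SE 0.55, adjusted p = 0.898) in livers. The medians over the tested target genes were -1.77 in HSC-KO macrophages, -1.03 in Smad4 cKO macrophages, -1.11 in ECs and 0.00832 in livers, against 0.0394, 0.036, 0.00475 and -0.00978 over all genes.

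Of the receptors and coreceptors, 3 fell and 2 rose among 13 tested in ECs, beside 13.7% of all genes called. Acvrl1, the receptor of GDF2 and BMP10, rose (log2 fold change 1.73, SE 0.17, adjusted p = 0.000539), and Acvr1 (-1.67, SE 0.16, adjusted p = 0.000542) and the coreceptor gene Eng (-1.31, SE 0.22, adjusted p = 0.00531) fell. In macrophages with HSC-KO, 2 of 12 rose and 1 fell, beside 11.7% of all genes. The TGF-beta receptor genes Tgfbr1 (2.76, SE 0.25, adjusted p = 0.000378) and Tgfbr2 (1.40, SE 0.20, adjusted p = 0.00299) were higher and Bmpr1a (-2.02, SE 0.37, adjusted p = 0.00842), a type I BMP receptor, was lower. With Smad4 cKO, Tgfbr1 rose (1.72, SE 0.16, adjusted p = 0.00107) and Bmpr1a fell (-1.20, SE 0.26, adjusted p = 0.0314), 1 in each direction of 12, beside 5.43% of all genes. Of the 16 tested in livers, edgeR and DESeq2 called 0, beside 2.48% of all genes with edgeR, and 4 had an unadjusted p under 0.05 in edgeR.

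Of the 8 Smads, 3 fell and 1 rose in ECs and in each macrophage comparison (Smad4 itself among those with Smad4 cKO), and 1 fell in livers, beside 13.7% of all genes in ECs, 11.7% with HSC-KO and 5.43% with Smad4 cKO in macrophages and 2.48% in livers. Smad5, a BMP-regulated Smad, rose in ECs (log2 fold change 1.63, SE 0.11, adjusted p = 0.000135). Smad3, which TGF-beta and activin receptors phosphorylate, rose in HSC-KO (1.70, SE 0.19, adjusted p = 0.00106) and Smad4 cKO macrophages (1.60, SE 0.38, adjusted p = 0.045). Smad6 (-4.17, SE 0.65, adjusted p = 0.00408) and Smad7 (-1.77, SE 0.18, adjusted p = 0.000691) fell in HSC-KO macrophages, and Smad7 (-1.46, SE 0.19, adjusted p = 0.00412) in Smad4 cKO macrophages.

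Of the genes for latency and activation of TGF-beta, 4 rose and 1 fell among 10 tested in ECs, where 13.7% of all genes were called, 1233 of them up and 965 down. Ltbp1, which encodes a latent TGF-beta binding protein, went from 135, 109 and 58 counts in control to 3121, 5952 and 7196 counts in HSC-KO ECs (log2 fold change 5.60, SE 0.50, adjusted p = 0.000357). The proprotein convertase gene Pcsk5 (2.87, SE 0.63, adjusted p = 0.0167) and Ltbp3 (2.52, SE 0.35, adjusted p = 0.00241) rose with it. In livers 1 of 12 was called, beside 2.48% of all genes, Ltbp1 (1.54, SE 0.26, adjusted p = 0.024). In HSC-KO macrophages 3 of 10 rose, beside 11.7% of all genes called, among them Thbs1 (2.88, SE 0.60, adjusted p = 0.0143), whose product thrombospondin 1 can activate latent TGF-beta, and Ltbp3 (2.68, SE 0.35, adjusted p = 0.00191). With Smad4 cKO 0 of 10 were called by edgeR or DESeq2, beside 5.43% of all genes with edgeR, and 3 had an unadjusted p under 0.05 in edgeR.

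Of 23 other ligands of the family, 7 were tested in ECs and 2 rose and 1 fell, beside 13.7% of all genes called. Gdf10, another BMP-like ligand, had 79, 35 and 0 counts in control and 1626, 1237 and 1927 counts in HSC-KO ECs (log2 fold change 5.23, SE 0.95, adjusted p = 0.0078), and Gdf11 rose by 1.85 (SE 0.32, adjusted p = 0.00627). In livers Gdf10 rose from 1113, 662 and 809 to 1387, 1425 and 1756 counts (1.12, SE 0.17, adjusted p = 0.016). Inhbe, the hepatocyte activin beta E chain, fell there (-2.13, SE 0.21, adjusted p = 0.00305). In macrophages Gdf15 rose with HSC-KO (2.95, SE 0.52, adjusted p = 0.00733) and with Smad4 cKO (4.65, SE 0.61, adjusted p = 0.00411), and Gdf3 rose with HSC-KO (2.45, SE 0.40, adjusted p = 0.0055). Of the secreted antagonists, 2 rose and 2 fell among 7 tested in ECs, beside the same 13.7% of all genes. Fstl1 (3.88, SE 0.43, adjusted p = 0.000933) and Nbl1 (2.62, SE 0.39, adjusted p = 0.00355) were higher and Bmper (-2.32, SE 0.22, adjusted p = 0.00047), which encodes a BMP-binding protein of ECs, was lower. In livers edgeR called 0 of 11 antagonists (2 at an unadjusted p under 0.05) and DESeq2 called 1, beside 2.48% of all genes with edgeR. In either macrophage comparison both tools called 0, beside 11.7% of all genes with HSC-KO and 5.43% with Smad4 cKO in edgeR, and 0 had an unadjusted p under 0.05.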

How the data were processed

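RNA-seq was done on liver macrophages, ECs and livers of mice, 3 libraries per group, described as independent biological replicates. Per the study's methods and the submitters' processing notes, the authors used HISAT2 for alignment to mm10 (GRCm38) and featureCounts for counting. The deposited values, 4 tables of 48820 entries, are whole read counts per gene without normalization. Versions, annotation release and strand use are not given in the sources used here. The members and gene lists were chosen with earlier results of these data known. In R 4.3.3 with edgeR 4.0.16, genes were filtered with filterByExpr (minimum count 10, minimum total 15), scaled by TMM and compared within each table by the quasi-likelihood test, with Benjamini-Hochberg adjustment over all genes tested. A gene was called where its adjusted p was below 0.05 and its log2 fold change was above 1 in size. Contrasts of cell types and differences between fold changes came from a fit over all 24 libraries, with repeated symbols summed. CPM values use the TMM factors of that fit. p-values measure the spread between these samples. Intervals are 95% intervals of the fit, and a limit of 3 counts stands for 0 detected. Exon lengths and coordinates are from GENCODE vM21. No fold change is given where a group of a ligand was at or below 3 counts in every library, or in every library left when 1 was left out. Alternatives were DESeq2 1.42.0, its size factors, library size alone, other filters, glmTreat, each library left out, the replicate number as a block, other sets of libraries and limma-voom (limma 3.58.1) with the mouse as block. The fits were tested on simulated data. Named were the 10 ligands, at most 3 called genes per list and comparison ranked by fold change among those averaging 1 CPM or more, and the 5 genes closest to Gdf2, Bmp2 and Bmp6 by correlation of log2 CPM (prior count 2). In the list of direct target genes 1 gene is not reported here, and the counts and medians of that list are over the others.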

Additional observations from a re-analysis of the deposited data

Results flagged for a closer look

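The fold change of Bmp2 with HSC-KO differed between ECs and macrophages by -4.41 on the log2 scale (SE 1.02, edgeR adjusted p = 0.00457 over 24 libraries), with a fall in the ECs and overlapping groups in the macrophages. That of Tgfb1 differed by -1.35 (SE 0.32, adjusted p = 0.00606), with all 3 HSC-KO macrophage libraries above their controls and all 3 HSC-KO EC libraries below theirs in CPM, where 40.3% of all genes tested in macrophages and 40.4% of those in ECs were apart in this way. Both were picked out because the difference between the cell types itself passed the test. Because 3 mice supplied both cell types, the difference was also fitted in limma-voom with the mouse as a block, where 2 ligands were called.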

How the results depend on the processing

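Over 1386 alternative values of single ligands, 1278 kept their direction and side of the threshold, 41 lost and 28 gained a call, and 39 changed sign, all of the latter in results that were not called. The number of ligands called in HSC-KO macrophages was 1 with DESeq2, with library size alone and with at least 10 counts in every library, 4 in the fit over all 24 libraries, which tested all 10, and 0 to 1 with a library left out, against 0. With Smad4 cKO it was 0 with glmTreat, library size alone, no filter, the replicate block and all 24 libraries, and 0 to 1 with a library left out, against 1. In ECs no alternative moved the count of 4 by over 1.5 times. In livers it was 2 with glmTreat, 1 over all 24 libraries and 2 to 4 with a library left out, against 5. With at least 10 counts in every library, where fewer ligands were tested, 2 were called between ECs and macrophages, 2 between ECs and livers and 1 between macrophages and livers. For the differences between fold changes, DESeq2 called 1 and leaving out a library 0 to 2 between the macrophage comparisons, glmTreat 1 between ECs and macrophages, and the libraries of the groups compared alone 2 and leaving out a library 0 to 1 between ECs and livers. The causes were not tested. The main fits did not pair the samples by replicate number. Correlations of same-numbered deviations were -0.107 to 0.162, and in ECs every sample correlated best with its own number (0.0334 to 0.117). With the replicate block, 0 ligands were called in HSC-KO macrophages, 0 with Smad4 cKO, 4 in ECs and 4 in livers.

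Signs changed in the following uncalled log2 fold changes when a library was left out. In 17 further cases, such as Tgfb2 without control macrophage replicate 3, the libraries left in a group were at or below 3 counts and no fold change is given. In HSC-KO macrophages Bmp2 ranged from -0.91 to 0.60, Tgfb2 from -0.69 to 0.75 and Inhba from -0.033 to 0.62. With Smad4 cKO Gdf2 ranged from -0.40 to 0.39, Bmp2 from -0.37 to 0.41, Bmp4 from -0.96 to 0.22, Bmp6 from -0.26 to 0.79 and Inhbb from -0.27 to 0.57. In livers Inhbb ranged from -0.39 to 0.23, between ECs and macrophages Gdf2 from -0.12 to 1.51, and between macrophages and livers Tgfb3 from -0.70 to 1.42. Between the macrophage comparisons Bmp2 ranged from -1.09 to 0.47 and Tgfb3 from -2.20 to 1.85, between ECs and macrophages Bmp4 from -2.04 to 1.62, Bmp6 from -2.03 to 0.77 and Tgfb2 from -0.14 to 1.24, and between ECs and livers Bmp2 from -1.63 to 0.28 and Tgfb1 from -0.21 to 0.19. Library size alone gave 0.0146 for Tgfb1 between macrophages and livers, 0.13 for Bmp2 and 0.25 for Tgfb1 between ECs and livers. The replicate block gave 0.24 for Bmp4 and -0.63 for Tgfb2 between ECs and macrophages, and limma-voom with the mouse as block gave -1.16 for Tgfb2. Bmp10 had at most 14 counts in the macrophage libraries, where a difference was not detectable at this depth.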
